A study of Mus musculus with 6 samples.

Results

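The genes described here are 59 ribosome biogenesis factors, named in a list by their GENCODE mouse symbols and found, all 59, among the 54232 genes of the deposited count table. They were chosen by role and with the fold changes of this same contrast, cKO against WT, in view, so counts of changed members describe the list and are no independent evidence. By their textbook roles the members fall into 27 factors of the small ribosomal subunit, 19 of the large subunit, 8 proteins of small nucleolar ribonucleoproteins (snoRNPs), 3 abundant nucleolar proteins and 2 subunits of RNA polymerase I (Pol I). Whole testes of B6D2F1 mice at postnatal day 4 were sequenced from 3 wild type samples (WT) and 3 conditional knockouts (cKO) of Dis3l2, an exoribonuclease gene, as labelled. The sources used here name neither the Cre driver nor the exons removed, and no further allele or treatment is given for either group. Libraries held 26126694 to 43265614 counts. The series set out to find genes whose expression differs with the genotype. It is not stated whether the samples of a group are separate animals, so p-values reflect only how far these samples vary, which may be technical.

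Ribosomes are assembled in the nucleolus, where Pol I transcribes the long precursor of most ribosomal RNAs. The small subunit processome, a large particle built on the 5′ part of that precursor around the U3 snoRNA, folds and cleaves the small subunit RNA. A separate series of pre-60S particles matures the large subunit with helicases, GTPases and AAA ATPases. Box C/D and box H/ACA snoRNPs guide the methylation and pseudouridylation of the RNA. In the testis, proliferating spermatogonia are among the cells known for a high demand for ribosomes.

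Transcripts of 14 small subunit factors, 8 large subunit factors and 2 snoRNP proteins fell in the cKO testes, while that of the largest Pol I subunit rose. All 59 members passed the filter on low counts and were tested. The level fell in 24 of them (40.7%) and rose in 1, and 34 were not past the threshold (adjusted p under 0.05, edgeR quasi-likelihood test, Benjamini-Hochberg adjustment over all 20153 genes tested). Over all genes tested 4.94% fell and 3.40% rose, 8.34% in all, and since the list was chosen with this contrast known, nothing is read from the difference between these shares. The members' median log2 fold change (cKO over WT) was -0.16, beside 0.0096 over all genes. Single members ranged from -0.46 for Utp4 to 0.40 for Polr1a. Below 0 lay 51 of the 59 (86.4%), beside 48.3% of all genes tested. All 3 cKO libraries lay below all 3 WT libraries in 37 members and above them in 1, and the groups overlapped in 21. Over all genes 14.6% separated downward and 13.6% upward in this way. Summed over the 59 members, the level was 8489.9 to 8652 CPM in WT and 7629 to 7999.6 CPM in cKO, without overlap. CPM are counts scaled by library size with TMM (trimmed mean of M values).

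**Figure D1:**
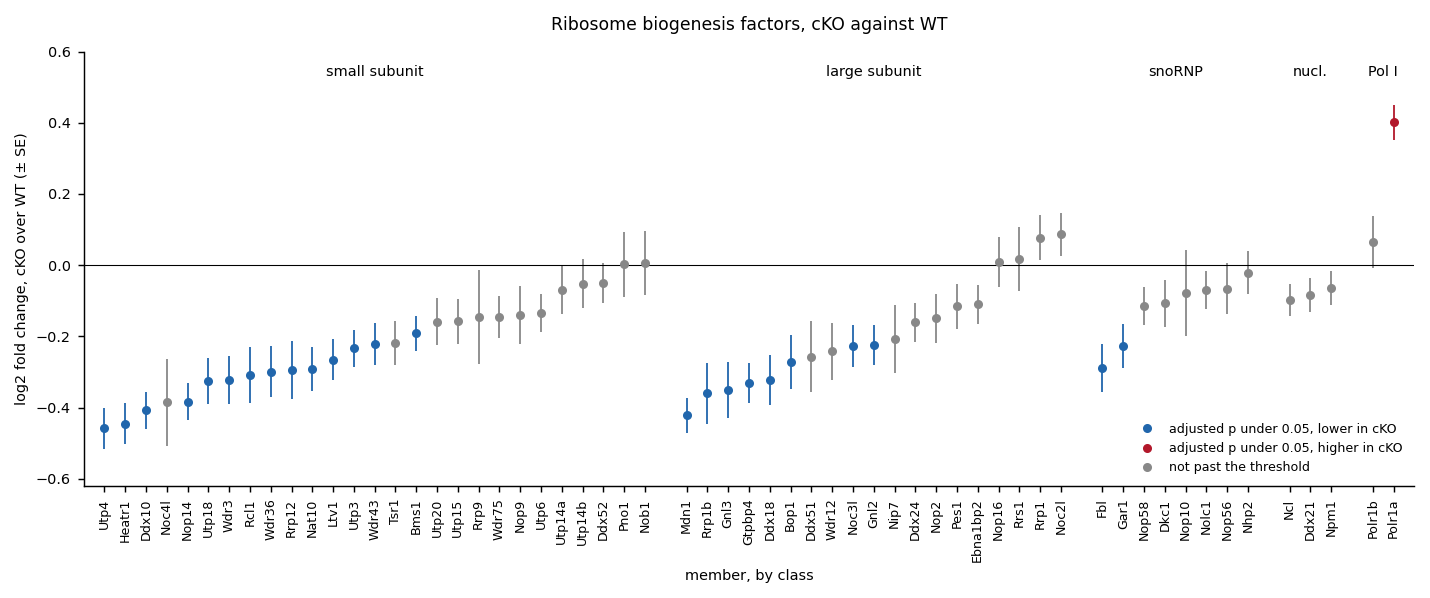
Log2 fold change of cKO over WT (vertical axis, ± SE) for each of the 59 members (horizontal axis, by class), coloured by whether the adjusted p was under 0.05. Blue points, 14 small subunit factors, 8 large subunit factors and 2 snoRNP proteins, lie between -0.46 and -0.19, and the red point is Polr1a at 0.40.

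Sequences upstream of RefSeq transcription starts are shown for Polr1a, the member that rose, and for 4 of the 5 falls with the lowest p. The fifth, Utp4, is not printed because 101 bases of its window lie in exons of the neighbouring gene Chtf8. Exons of the GENCODE annotation also cover 23 bases of the Heatr1 window, from Heatr1 itself, and 20 bases of the Nop14 window, from Grk4. The Heatr1 window lies inside the counted gene model, which starts at 12395027. Each sequence is the 250 bases before the RefSeq transcription start on the gene's strand, 5′ to 3′ (RefSeq, GRCm38.p6). Capitals mark the letters CCGGAAG, a core recognised by ETS family transcription factors, where they occur. The windows lie at chr4:32656869-32657118 (plus strand) for Mdn1, chr13:12395125-12395374 (plus) for Heatr1, chr9:53248113-53248362 (minus) for Ddx10, chr5:34660149-34660398 (minus) for Nop14 and chr6:71908803-71909052 (plus) for Polr1a.
Mdn1: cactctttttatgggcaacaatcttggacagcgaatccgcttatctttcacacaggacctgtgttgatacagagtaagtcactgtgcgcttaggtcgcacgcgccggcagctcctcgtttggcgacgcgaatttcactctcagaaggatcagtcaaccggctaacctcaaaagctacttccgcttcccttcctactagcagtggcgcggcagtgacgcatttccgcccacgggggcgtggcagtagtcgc
Heatr1: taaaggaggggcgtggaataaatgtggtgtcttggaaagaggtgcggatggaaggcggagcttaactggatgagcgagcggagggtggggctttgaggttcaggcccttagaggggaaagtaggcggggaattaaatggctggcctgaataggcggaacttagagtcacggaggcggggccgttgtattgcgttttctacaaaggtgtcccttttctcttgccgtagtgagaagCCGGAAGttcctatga
Ddx10: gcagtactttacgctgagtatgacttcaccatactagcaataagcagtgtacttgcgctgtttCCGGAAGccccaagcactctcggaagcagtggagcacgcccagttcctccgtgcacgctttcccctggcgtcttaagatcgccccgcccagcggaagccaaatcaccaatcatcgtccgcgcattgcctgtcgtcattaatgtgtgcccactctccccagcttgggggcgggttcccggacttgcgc
Nop14: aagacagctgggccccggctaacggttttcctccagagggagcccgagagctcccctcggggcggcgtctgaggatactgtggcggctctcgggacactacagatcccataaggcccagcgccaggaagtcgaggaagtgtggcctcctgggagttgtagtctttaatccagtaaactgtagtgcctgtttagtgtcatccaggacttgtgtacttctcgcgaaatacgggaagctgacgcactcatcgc
Polr1a: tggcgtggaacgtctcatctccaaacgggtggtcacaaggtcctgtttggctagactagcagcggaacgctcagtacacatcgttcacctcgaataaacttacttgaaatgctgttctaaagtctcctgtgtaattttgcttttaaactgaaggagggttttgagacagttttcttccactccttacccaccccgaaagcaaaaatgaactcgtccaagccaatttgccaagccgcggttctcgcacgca

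The CCGGAAG letters began 16 bases before the RefSeq start in Heatr1 and 187 bases before it in Ddx10, while the other 3 windows lacked them. Windows were found for 51 of the 59 members, 55 windows in all, and 6 motifs were searched on both strands. CCGGAAG occurred in 12 of the 55 member windows (21.8%), beside 6.91% of the 32851 windows of all genes in the RefSeq table, which include non-coding genes. It was present in 8 of 20 windows of members that fell (40%) and in 4 of 34 windows of members not past the threshold (11.8%). The 8 windows belong to Bms1, Ddx10, Heatr1, Ltv1, Utp18, Utp3, Utp4 and Gar1, so 7 of these genes encode small subunit factors. The GC box GGGCGG was in 63.6% of member windows and in 32.7% of all windows. The E-box CACGTG, the core bound by MYC with MAX, was in 3 of the member windows (5.45%) and in 6.02% of all windows. CCAAT was in 34.5% and 33.8%, TATAAA in 3.64% and 12.4%, and the palindromic NRF1 motif in 0 of 55 member windows and 0.782% of all. These are matches of letters in a fixed window and show no binding. The ETS letters were singled out after their counts were seen.

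Small subunit factors, the largest class on the list, made up the larger part of the falls. The share that fell was 51.9%, beside 42.1% of the large subunit members. It was 6.25% among 32 further small subunit factors described below and 4.94% over all genes tested. Of the 27 members of this class, 14 fell and 13 did not pass the test, with a median log2 fold change of -0.22 and 25 values below 0. The summed level of the class was 2195 to 2240.4 CPM in WT and 1845 to 1924 CPM in cKO. None of the 27 rose in edgeR, with 0 values above 0 at an unadjusted p under 0.05 and 0 rises in DESeq2 or limma-voom. In 20 members the groups separated, with cKO lower, beside 14.6% of all genes tested. Within each of the 14 falls the groups did not overlap. With 3 libraries per group a call is hard to reach without such a gap, so this adds no support.

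The UTP-A complex is the first to bind the 5′ part of the precursor. Its member Utp4 (chromosome 8, 106893636 to 106923088, GRCm38) had WT values of 125, 129 and 125 CPM and cKO values of 87.6, 98.2 and 90.6 CPM. The highest cKO library was thus below the lowest WT library, and the log2 fold change was -0.46 (SE 0.057, adjusted p = 5.25e-04), or 27.2% lower. Heatr1 (chromosome 13, 12395027 to 12440289), whose large HEAT-repeat product is the UTP-A subunit called Utp10 in yeast, had WT values of 107, 112 and 113 CPM and cKO values of 76.8, 83.0 and 83.6 CPM. Its level fell by 0.45 on the log2 scale (SE 0.057, adjusted p = 5.99e-04). Wdr43, a further UTP-A subunit, had WT values of 165, 155 and 146 CPM and cKO values of 132, 137 and 130.5 CPM. All 3 cKO values were lower, with a log2 fold change of -0.22 (SE 0.058, adjusted p = 0.0348), but the adjusted p reached 0.160 without WT replicate 1. Of the 5 UTP-A subunits on the list 3 fell, and Utp15 and Wdr75 did not pass the test, with log2 fold changes of -0.16 and -0.15. These groupings by complex were made after the values were seen.

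UTP-B is the complex that joins next, and 3 of its 4 listed subunits fell. Utp18 had WT values of 43.4, 42.4 and 40.8 CPM and cKO values of 33.2, 33.7 and 34.1 CPM. The cKO libraries lay close together below the WT libraries, at a log2 fold change of -0.33 (SE 0.064, adjusted p = 0.00899), and the adjusted p reached 0.0639 without WT replicate 2. Wdr3, the subunit called Utp12 in yeast, had WT values of 40.6, 42.7 and 42.0 CPM and cKO values of 31.8, 34.9 and 33.4 CPM. Its log2 fold change was -0.32 (SE 0.067, adjusted p = 0.0116), with an adjusted p of up to 0.0867 without WT replicate 2. Wdr36, known as Utp21 in yeast, had WT values of 85.3, 79.1 and 82.2 CPM and cKO values of 59.8, 70.9 and 69.5 CPM. cKO replicate 1 stood lowest there, the log2 fold change was -0.30 (SE 0.071, adjusted p = 0.0220), with an adjusted p of up to 0.118 without WT replicate 1. Utp6, the remaining UTP-B subunit, had a log2 fold change of -0.13 (SE 0.055, adjusted p = 0.162) and did not pass.

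Ddx10 and Nop14 completed the 4 small subunit factors with the lowest p. Ddx10 (chromosome 9, 53098635 to 53248053) encodes a DEAD-box helicase, and its libraries had WT values of 157, 156 and 154 CPM and cKO values of 117, 122 and 113 CPM. Every cKO value lay far below every WT value, and the log2 fold change was -0.41 (SE 0.051, adjusted p = 5.48e-04). Nop14 (chromosome 5, 34638536 to 34660148), a processome scaffold protein, had WT values of 138, 138 and 132 CPM and cKO values of 107, 104 and 102 CPM. Its log2 fold change was -0.38 (SE 0.052, adjusted p = 8.00e-04), and the spread within each group was small beside the gap. Noc4l, the partner of Nop14 in the processome, had WT values of 28.8, 24.4 and 23.9 CPM and cKO values of 16.3, 19.3 and 23.3 CPM. The groups did not overlap, with cKO replicate 3 just below the lowest WT library, and the log2 fold change of -0.39 (SE 0.12, adjusted p = 0.0766) did not pass the test.

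Enzymes and cofactors of the processome also fell. Bms1, a GTPase that acts with Rcl1 in the cleavage of the precursor, had WT values of 340.4, 353 and 329 CPM and cKO values of 309, 297 and 290.3 CPM. The groups were apart by less than in Utp4, with a log2 fold change of -0.19 (SE 0.050, adjusted p = 0.0336) and an adjusted p of up to 0.192 without WT replicate 2. Rcl1 had WT values of 32.9, 37.3 and 37.5 CPM and cKO values of 27.1, 30.2 and 29.5 CPM. WT replicate 1 stood lowest among the WT libraries, and the log2 fold change was -0.31 (SE 0.079, adjusted p = 0.0329), with an adjusted p of up to 0.172 without WT replicate 2. Nat10, the acetyltransferase that modifies cytidines of the small subunit RNA, had WT values of 50.9, 49.1 and 48.4 CPM and cKO values of 41.6, 39.7 and 40.0 CPM. All cKO libraries were lower, at a log2 fold change of -0.29 (SE 0.062, adjusted p = 0.0128), with an adjusted p of up to 0.0729 without WT replicate 2. Utp3, a processome protein with the highest level per length of the class, had WT values of 132, 133 and 132 CPM and cKO values of 114, 116 and 108 CPM. Its replicates agreed closely, and the log2 fold change was -0.23 (SE 0.052, adjusted p = 0.0156), with an adjusted p of up to 0.0988 without WT replicate 2.

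Factors of the late, exported pre-40S particle were mixed. Ltv1, which holds back the maturation of the small subunit until it is released, had WT values of 66.2, 65.3 and 66.2 CPM and cKO values of 56.3, 55.2 and 53.1 CPM. The WT libraries were almost equal and all cKO libraries lower, at a log2 fold change of -0.27 (SE 0.057, adjusted p = 0.0135), with an adjusted p of up to 0.0748 without WT replicate 2. Rrp12, a factor of subunit export, had WT values of 36.8, 39.5 and 40.3 CPM and cKO values of 28.3, 34.3 and 32.4 CPM. cKO replicate 1 was the lowest, and the log2 fold change was -0.29 (SE 0.082, adjusted p = 0.0467), with an adjusted p of up to 0.192 without WT replicate 2. Tsr1, a GTPase-like protein of the same particle, lay just outside the threshold at -0.22 (SE 0.063, adjusted p = 0.0525). Bop1 of the large subunit lay just inside it at -0.27 (SE 0.076, adjusted p = 0.0471). Of 7 other tools, scalings, filters or designs with all 6 libraries, 5 called Tsr1 lower and 7 called Bop1 lower. With 1 library left out, 1 of 6 fits called Tsr1 and 2 called Bop1. Nob1, the endonuclease of the final cleavage, and its partner Pno1 had log2 fold changes of 0.0053 and 0.0030, and their groups overlapped. The signs of both turned with library size alone as the scaling and without some libraries.

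The processome helicase-associated factor Utp14 exists as an ancestral X-linked gene, Utp14a, and a retrogene, Utp14b, that lies within Acsl3 and is known to be needed for spermatogenesis. Utp14a had WT values of 33.1, 33.4 and 35.7 CPM and cKO values of 33.8, 31.8 and 32.0 CPM, with overlapping groups and a log2 fold change of -0.069 (SE 0.070, adjusted p = 0.616). Utp14b (chromosome 1, 78658038 to 78671512) had WT values of 53.0, 54.4 and 52.8 CPM and cKO values of 55.5, 52.2 and 47.0 CPM. Its groups overlapped as well, and the log2 fold change of -0.052 (SE 0.070, adjusted p = 0.724) turned to 0.0069 without cKO replicate 3. Per length, Utp14a stood at 8.26 ± 0.344 RPKM (CPM per kb of exon) and Utp14b at 6.96 ± 0.114 RPKM in WT (SD, n = 3). Of the exonic bases of Utp14b, 3.18% are shared with Acsl3, and reads there were not counted.

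Large subunit factors also lay mostly below 0. In this class of 19, 8 fell and 11 did not pass the test, with a median log2 fold change of -0.22 and 15 values below 0. The groups did not overlap in 13 members, all downward, beside 14.6% of all genes tested. Summed levels were 1666 to 1692 CPM in WT and 1421 to 1504 CPM in cKO. edgeR called 0 of the 19 higher, as did DESeq2 and limma-voom, with 0 values above 0 at an unadjusted p under 0.05. Mdn1 (chromosome 4, 32657119 to 32775217) encodes midasin, a giant AAA ATPase that strips assembly factors from pre-60S particles, and had the lowest p of all members. Its libraries had WT values of 314, 326 and 335 CPM and cKO values of 234, 249 and 245 CPM. The groups were far apart, and the log2 fold change was -0.42 (SE 0.050, adjusted p = 3.51e-04).

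The 3 listed GTPases of the pre-60S particles all fell. Gtpbp4, known as Nog1 in yeast, had WT values of 209.6, 218 and 218 CPM and cKO values of 176, 179 and 158 CPM. cKO replicate 3 was the lowest, and the log2 fold change was -0.33 (SE 0.057, adjusted p = 0.00406). Gnl2, related to yeast Nog2, had WT values of 165, 152 and 150.3 CPM and cKO values of 136, 136 and 127 CPM. WT replicate 1 was the highest, and the log2 fold change was -0.22 (SE 0.057, adjusted p = 0.0313), with an adjusted p of up to 0.147 without WT replicate 1. Gnl3 encodes nucleostemin, a nucleolar GTPase known for its abundance in stem and dividing cells, and had WT values of 43.8, 48.3 and 46.4 CPM and cKO values of 38.8, 37.4 and 32.5 CPM. Here cKO replicate 3 was lowest, with a log2 fold change of -0.35 (SE 0.079, adjusted p = 0.0172) and an adjusted p of up to 0.117 without WT replicate 2. Small nucleolar RNA models share 3.85% of the exonic bases of Gnl3.

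Among the other large subunit factors, Ddx18, a DEAD-box helicase, had WT values of 31.3, 33.5 and 31.5 CPM and cKO values of 26.1, 26.0 and 24.9 CPM. The cKO libraries were nearly equal, at a log2 fold change of -0.32 (SE 0.071, adjusted p = 0.0156) and an adjusted p of up to 0.109 without WT replicate 2. Near-identical copies of Ddx18 (Gm16433, 99.3% identity) make its count uncertain, since reads that fit both were not counted. Noc3l, which enters early pre-60S particles, had WT values of 61.6, 58.6 and 60.3 CPM and cKO values of 52.3, 52.5 and 49.3 CPM. Its log2 fold change was -0.23 (SE 0.060, adjusted p = 0.0359), with an adjusted p of up to 0.140 without WT replicate 1. Bop1, which forms the PeBoW complex with Pes1 and Wdr12, fell as well, and it was the 1 of these 3 subunits to do so. The PeBoW subunits had log2 fold changes of -0.27, -0.12 and -0.24 for Bop1, Pes1 and Wdr12, and Bop1 reached an adjusted p of 0.197 without WT replicate 2.

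The paralogs Rrp1 and Rrp1b, related to a yeast factor of pre-60S processing, had log2 fold changes of opposite sign. Rrp1b had WT values of 45.8, 50.1 and 48.8 CPM and cKO values of 32.5, 39.6 and 40.4 CPM, and cKO replicate 1 stood well below the other cKO libraries. Its log2 fold change was -0.36 (SE 0.085, adjusted p = 0.0215), with an adjusted p of up to 0.131 without WT replicate 2. Rrp1, at 47.4 ± 1.52 RPKM in WT the class member with the highest level per length, had WT values of 164, 155 and 155 CPM and cKO values of 151, 173 and 176 CPM. Its groups overlapped, with a log2 fold change of 0.078 (SE 0.063, adjusted p = 0.518). The difference between the paralogs' changes was not tested. Besides Rrp1, the members above 0 in this class were Noc2l at 0.087, Rrs1 at 0.017 and Nop16 at 0.0089, and all 4 overlapped between groups. The signs of Rrs1 and Nop16 turned with library size alone as the scaling and without some libraries.

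**Figure D2:**
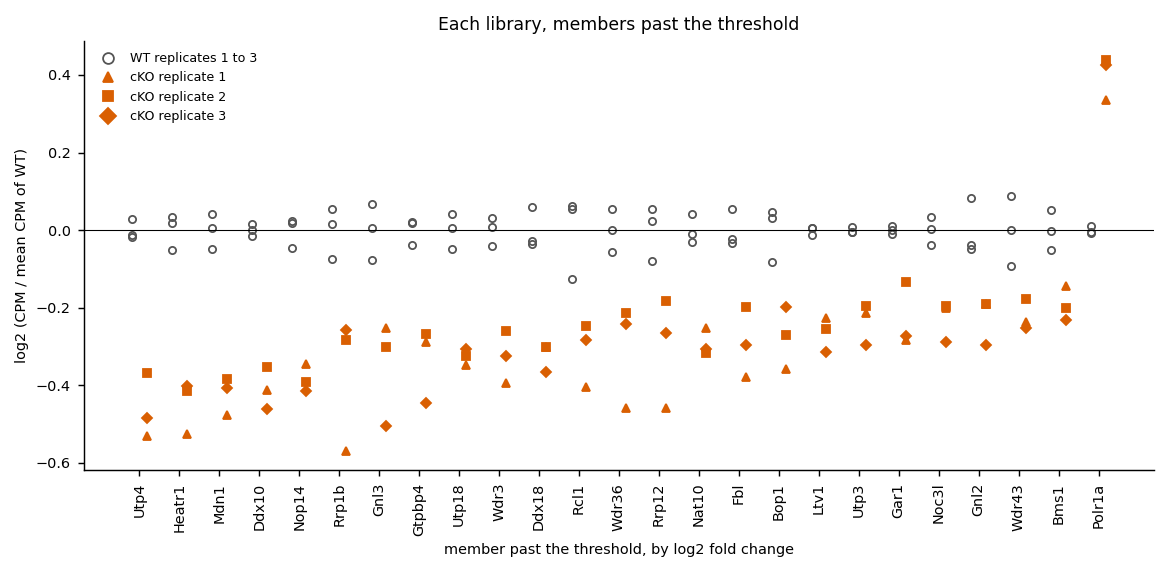
Log2 ratio of each library's CPM to the WT mean (vertical axis) for the 25 members past the threshold (horizontal axis), with WT libraries as open circles and each cKO replicate as its own symbol. No cKO symbol lies among the WT circles of its gene, and cKO replicate 1 stands apart downward in Rrp1b, Wdr36 and Rrp12.

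Of the snoRNP proteins, 1 from each of the core complexes fell. All 8 members had log2 fold changes below 0, with a median of -0.093, and 2 of them fell. The sign of Nop56 turned without cKO replicate 1 and those of Nhp2 and Nop10 without WT replicate 2. The summed level of the class was 905 to 952 CPM in WT and 851 to 875 CPM in cKO. Fbl encodes fibrillarin, the methyltransferase of box C/D snoRNPs, and had WT values of 51.6, 48.9 and 48.5 CPM and cKO values of 38.2, 43.3 and 40.4 CPM. The cKO libraries were all lower, at a log2 fold change of -0.29 (SE 0.068, adjusted p = 0.0222), and the adjusted p reached 0.115 without WT replicate 1. Its box C/D partners Nop56 and Nop58 had log2 fold changes of -0.066 (SE 0.072, adjusted p = 0.646) and -0.11 (SE 0.054, adjusted p = 0.225). Small RNA models share 8.0% of the exonic bases of Nop56.

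In the box H/ACA core, Gar1 had WT values of 63.3, 62.9 and 62.4 CPM and cKO values of 51.7, 57.3 and 52.1 CPM. cKO replicate 2 came nearest to the WT libraries without reaching them, and the log2 fold change was -0.23 (SE 0.062, adjusted p = 0.0425), with an adjusted p of up to 0.167 without WT replicate 2. The other core proteins, the pseudouridine synthase Dkc1 and its partners Nhp2 and Nop10, did not pass the test, with log2 fold changes of -0.11, -0.021 and -0.078. Nhp2 had the highest level per length of the snoRNP class, 104 ± 7.05 RPKM in WT (SD, n = 3), and had WT values of 109.9, 126 and 121 CPM and cKO values of 121, 115 and 116 CPM. Its groups overlapped, and the sign turned positive, to 0.022, without WT replicate 2. Nolc1, a nucleolar chaperone of snoRNPs, had a log2 fold change of -0.070 (SE 0.053, adjusted p = 0.488).

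The 3 abundant nucleolar proteins had small shifts. Npm1, the histone chaperone and nucleolar scaffold nucleophosmin, had WT values of 868, 930.2 and 924 CPM and cKO values of 876, 891 and 836 CPM, and its groups overlapped at a log2 fold change of -0.065 (SE 0.048, adjusted p = 0.473). Ncl, the RNA-binding protein nucleolin, had WT values of 2287, 2322 and 2262 CPM and cKO values of 2163, 2223 and 2033 CPM. Every WT library exceeded every cKO library, but the log2 fold change of -0.098 (SE 0.046, adjusted p = 0.219) did not pass the test. Ncl (chromosome 1, 86344719 to 86359400) lies close to Dis3l2 on the same chromosome. The helicase Ddx21 had a log2 fold change of -0.084 (SE 0.048, adjusted p = 0.328). edgeR called 0 of the 3, with 0 at an unadjusted p under 0.05 and 0 calls in DESeq2 and limma-voom. Copies of Npm1 and Pes1 in other gene models make their counts uncertain.

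The 2 listed Pol I subunits both had log2 fold changes above 0, and Polr1a rose. Polr1a (chromosome 6, 71909053 to 71984935), the largest and catalytic subunit, had WT values of 212, 209 and 209.7 CPM and cKO values of 265, 285 and 282 CPM. The WT libraries were almost equal and all 3 cKO libraries lay above them, at a log2 fold change of 0.40 (SE 0.049, adjusted p = 4.49e-04), or 32.0% higher. Its adjusted p was at most 0.00823 with 1 library left out. Polr1b, the second-largest subunit, had WT values of 52.3, 53.7 and 53.9 CPM and cKO values of 50.5, 56.0 and 60.7 CPM. Its groups overlapped, with a log2 fold change of 0.065 (SE 0.072, adjusted p = 0.652) that became -0.0051 without cKO replicate 3. Within 5 Mb of Polr1a, 4 of 69 tested genes rose (5.80%) and 2 fell, and their median log2 fold change was 0.065.

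Levels per length spanned a wide range, in RPKM from exonic lengths of the deposited table. Npm1 at 340.5 ± 12.8 and Ncl at 225 ± 2.98 RPKM were the highest in WT (SD, n = 3), above Nhp2. Utp3 followed at 81.4 ± 0.409 RPKM and Bms1 at 70.2 ± 2.49 RPKM. Wdr12 was the lowest at 1.82 ± 0.0572 RPKM. The members that fell lay across the range, from Rrp1b at 6.26 ± 0.286 to Utp3. Mdn1, with the lowest p, stood at 14.9 ± 0.474 RPKM in WT and 11.1 ± 0.363 RPKM in cKO. Polr1a was at 17.7 ± 0.126 RPKM in WT and 23.4 ± 0.891 RPKM in cKO, and Polr1b at 9.19 ± 0.150 and 9.60 ± 0.885 RPKM. These ranks depend on the exonic lengths, 11955 bases for Wdr12, 10188 for Ncl and 2665 for Npm1. In mean WT CPM, Ncl (2290.5) stood above Npm1 (907), and Rrp9 (17.2) below Wdr12 (21.7).

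**Figure D3:**
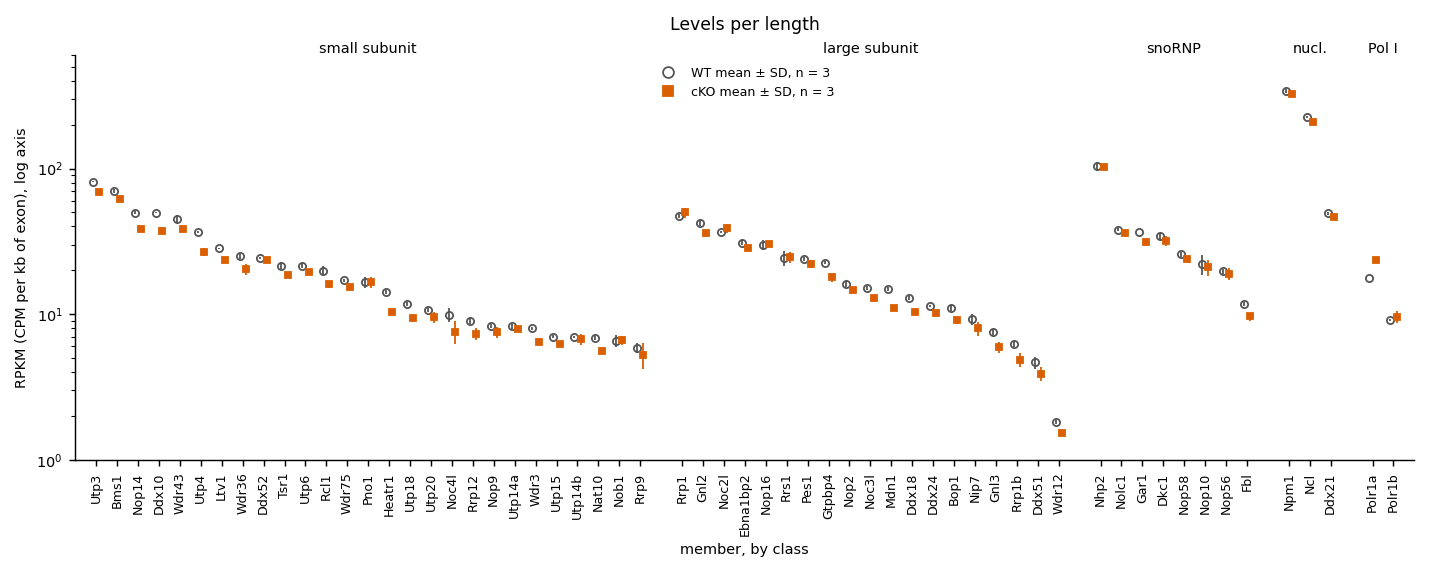
Mean level per length in RPKM (vertical axis, logarithmic, ± SD, n = 3) of each member (horizontal axis, by class and WT level), with WT as open circles and cKO as filled squares. Npm1 and Ncl stand above all others, and the squares lie below the circles for most processing factors and above for Polr1a.

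The median log2 ratio of the members to their WT mean was -0.23 in cKO replicate 1, -0.13 in replicate 2 and -0.18 in replicate 3. cKO replicate 1 was the lowest of the cKO libraries in 32 members, replicate 3 in 22 and replicate 2 in 5. It also had the fewest counts of the 6 libraries, 26126694, and correlated with the other cKO libraries at 0.984 to 0.985 over log2 CPM, beside 0.990 between those. Without it 27 members fell and 1 rose, while over all genes the falls went from 996 to 1705 and the rises from 685 to 1670. The median coefficient of variation of a member was 3.54% in WT and 4.66% in cKO, at most 15.4% for Nop10 in WT and 20.1% for Rrp9 in cKO.

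Many single calls rested on the full set of libraries. Utp4, Heatr1, Ddx10, Nop14, Mdn1, Gtpbp4 and Polr1a were called with each of the 6 libraries left out in turn, and the other 18 called members lost the call without at least 1 library. The number that fell was 9, 6 and 9 without WT replicates 1, 2 and 3, and 9 and 18 without cKO replicates 2 and 3. Over all genes the falls in these fits were 471, 387, 510, 524 and 923, in the same order, beside 996 with all libraries. All 18 members that lost a call lost it without WT replicate 2. Without WT replicate 1 the calls of Wdr3, Rcl1 and Gnl3 held and the other 15 were lost. Without WT replicate 3 those of Wdr43, Nat10 and Utp18 held, and without cKO replicate 2 those of Wdr3, Wdr36 and Fbl, with 15 lost in each case. Leaving out cKO replicate 3 lost 7, those of Wdr43, Rrp12, Bms1, Rcl1, Noc3l, Gnl2 and Gar1, and leaving out cKO replicate 1 lost 0 and added 3. Among the lost calls the adjusted p lay between 0.0514 and 0.197. All 25 called members kept their direction under each of the 13 other settings tried, and Polr1a was the rise under each. This was largely fixed in advance, since their groups did not overlap and every setting drew on the same libraries.

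**Figure D4:**
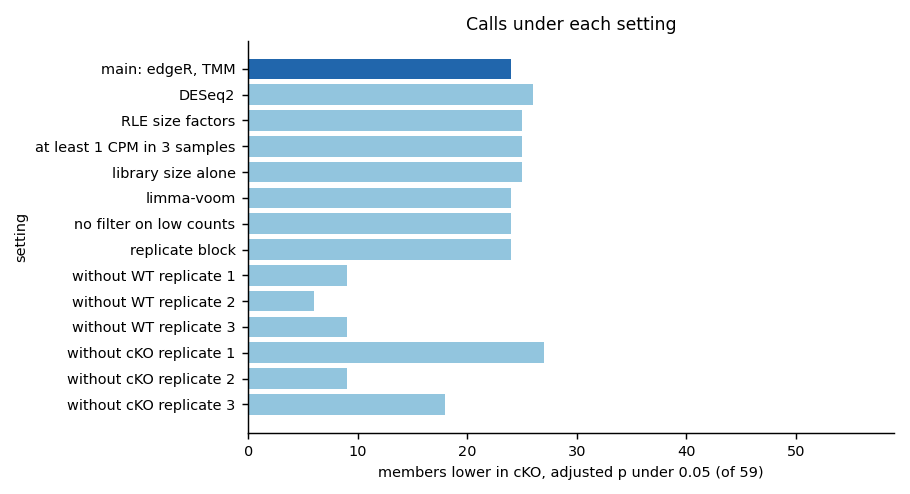
Number of members lower in cKO at an adjusted p under 0.05, of 59 (horizontal axis), for the analysis reported and 13 other settings (vertical axis). Other tools, scalings and filters gave 24 to 26, and leaving out 1 library gave 6 to 27.

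Other genes of the pathway, 102 in 4 lists compiled by known role, also lay mostly below 0. Of these, 15 fell (14.7%), beside 4.94% of all genes tested. The median log2 fold change was -0.12, and 81 of 102 lay below 0 (79.4%), beside 48.3% of all genes tested. edgeR called 0 of the 102 higher, as did DESeq2 and limma-voom, and 3 lay above 0 at an unadjusted p under 0.05. Further small subunit factors gave 2 falls of 32 (6.25%, near the share over all genes), Esf1 (-0.33) and Nol10 (-0.30). Further large subunit factors gave 7 of 41 (17.1%), of which Cebpz had the lowest p, at -0.30 (SE 0.049, adjusted p = 0.00320). Assembly factors of snoRNPs gave 4 of 11 (36.4%). Among these Rpap3, of the R2TP chaperone, stood at -0.28 (SE 0.059, adjusted p = 0.0126), Znhit3 at -0.45 and Shq1, which receives Dkc1, at -0.44. Other Pol I machinery gave 2 falls of 18 (11.1%). Taf1d of the promoter factor SL1 stood at -0.27 (SE 0.058, adjusted p = 0.0143). The shared subunit Polr1c stood at -0.31 (SE 0.085, adjusted p = 0.0459). Polr1c had WT values of 28.5, 29.1 and 29.2 CPM and cKO values of 21.8, 22.2 and 26.1 CPM, so it was lower in all cKO libraries whereas Polr1a was higher.

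MYC and MYCN are known activators of ribosome biogenesis genes. Of 11 genes of the MYC network edgeR called 0, beside 8.34% of all genes tested, and DESeq2 and limma-voom called 0. At an unadjusted p under 0.05 lay 3 of the 11. Over all 20153 genes tested, 2429 below 0 and 2270 above 0 did so. A list of 11 genes is too small to tell its counts from the shares over all genes. The network's median log2 fold change was 0.015. Myc had WT values of 42.9, 40.1 and 43.7 CPM and cKO values of 40.2, 41.7 and 42.2 CPM, with overlapping groups and a log2 fold change of -0.028 (SE 0.066, adjusted p = 0.855). Mycn had WT values of 73.3, 75.5 and 75.4 CPM and cKO values of 64.0, 79.3 and 83.1 CPM, and its log2 fold change of 0.015 (SE 0.084, adjusted p = 0.940) took either sign depending on the scaling and the libraries used.

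Markers of several cell types also differed between cKO and WT. Of 12 germ cell markers 9 fell, with a median log2 fold change of -0.76, and their summed level was 1197 to 1266 CPM in WT and 660.2 to 702 CPM in cKO. All 52 markers were above 0 in every library. Tex15, Ddx4 and Stk31 had the lowest p, with log2 fold changes of -1.21, -1.05 and -1.03. Dnd1 (-0.48), Nanos3 (-0.078) and Kit (-0.033) did not pass the test. Somatic markers lay mostly above 0. Rises were called for 3 of 10 Sertoli, 3 of 6 Leydig, 4 of 7 macrophage and 1 of 5 endothelial markers. Over all genes tested 3.40% rose. The Leydig markers Hsd3b1 (-0.047), Insl3 (0.068) and Cyp11a1 (0.10) did not pass, nor did the macrophage markers C1qa (0.010), Cd68 (0.28) and Adgre1 (0.49). The summed level of the Sertoli list was 3659 to 3762 CPM in WT and 3875 to 4727 CPM in cKO. A large part of that sum was Clu, at 1760 to 1855 CPM in WT and 2004 to 2313 CPM in cKO. In 7 of the 10 Sertoli markers the groups overlapped. Sums were 428 to 440.2 CPM in WT and 476 to 526 CPM in cKO for the Leydig list. For the macrophage list they were 71.8 to 80.5 CPM in WT and 97.5 to 102 CPM in cKO. For the endothelial list they were 562 to 579 CPM in WT and 601 to 665 CPM in cKO. Of 6 peritubular and stromal markers edgeR called 1 lower, Col1a2, while DESeq2 called 0 and limma-voom 2, and 2 lay below 0 at an unadjusted p under 0.05. Their summed level was 9541 to 10140.0 CPM in WT, and in cKO it was 10244 CPM in replicate 1, 7431.5 CPM in replicate 2 and 7350.1 CPM in replicate 3. cKO replicate 1 thus stood apart from the other cKO libraries in this list. In the Sertoli list it lay nearest to WT, at 3875 CPM, beside 4610 CPM in cKO replicate 2 and 4727 CPM in cKO replicate 3. Of 6 genes of cycling cells, Mcm6 (-0.39) and Ccnb1 (-0.40) fell. Top2a (-0.090), Pcna (-0.031), Mki67 (0.012) and Cdk1 (0.015) did not pass the test. In bulk tissue, fewer cells of a type and less RNA per cell cannot be told apart, and the part of these shifts in the members' results was not tested. Whole-gene counts of Dis3l2 were 31.0 to 32.8 CPM in WT and 30.6 to 33.6 CPM in cKO, which does not check the genotype labels where the deleted part is not known.

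**Figure D5:**
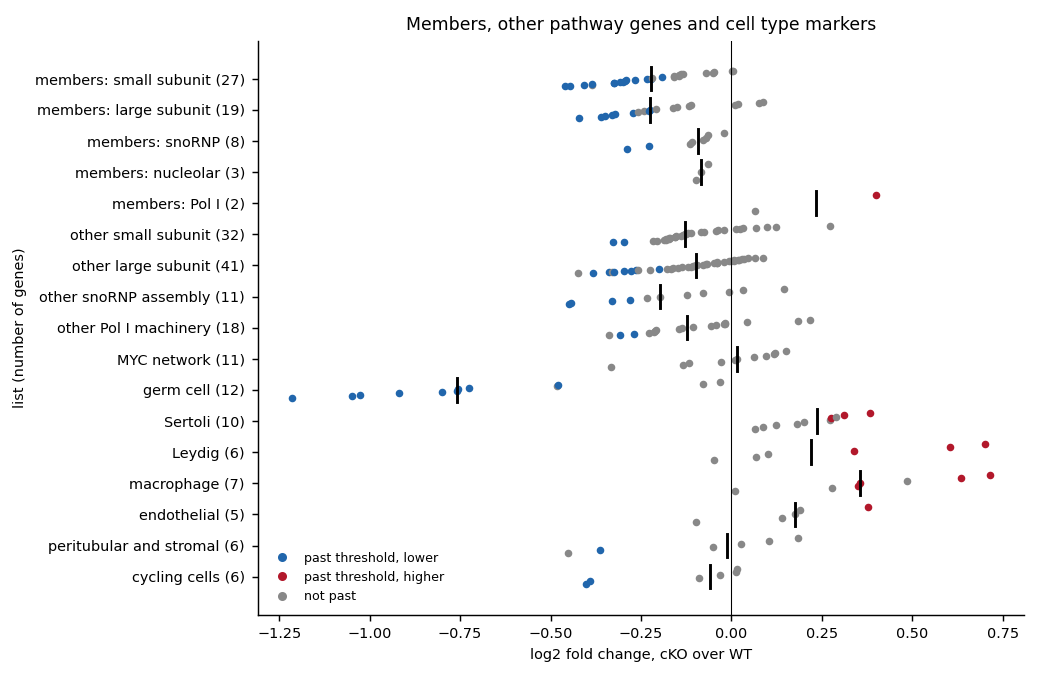
Log2 fold change of cKO over WT (horizontal axis) of single genes in each list (vertical axis, gene number in parentheses), coloured by call, with the list's median as a black bar. The median of the germ cell markers is at -0.76 and those of the small and large subunit members are each at -0.22.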

How the data were processed

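Counts per gene in 6 libraries were deposited by the authors as a whole-series table. Per the file headers they are raw read counts made by featureCounts 1.6.4 with the GENCODE M18 annotation, on the gene's strand, without multi-mapped or ambiguous reads. The deposited exonic length of each gene, another column of the authors' table, was used for RPKM alone. The submitters' processing notes name cutadapt, HISAT2 and GRCm38.p5. The labels' molecule field says polyA RNA, whereas the labels' protocol describes random and poly(T) priming with depletion of unwanted transcripts.

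Libraries held 26126694 to 43265614 counts. Genes were kept by filterByExpr (minimum count 10, minimum total 15), leaving 20153 of 54232, scaled by TMM and compared with the edgeR 4.0.16 quasi-likelihood test (R 4.3.3, two-sided, group as the only term, 3 WT against 3 cKO). P-values were adjusted over all genes kept, and a gene was called at an adjusted p under 0.05. Symbols came from the GENCODE annotation of the same genome (54079 genes named, 4 listed genes by an older symbol). The members, lists and tests were chosen with earlier results of these data known. Values per library are given for the 24 called members of lowest p, the member of highest level and of largest change in each class, and pairs of paralogs. Noc4l, Polr1c and genes just past or short of the threshold were added after their values were seen. Alternatives were DESeq2 1.42.0, limma-voom (limma 3.58.1), RLE size factors or library size alone, no filter on low counts, a filter of 1 CPM in 3 samples, the replicate number as a block and each library left out. Copies were searched with minimap2 2.31 (95% identity or more, covering 30% or more of a transcript). The scripts were tested on simulated counts. Figures used matplotlib 3.10.9 in Python 3.11.15.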

Additional observations from a re-analysis of the deposited data

How the results depend on the processing

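The members' median log2 fold change stayed between -0.194 and -0.151 with 1 library left out. The count of members that fell ranged from 6 (without WT replicate 2) to 27 (without cKO replicate 1). Over all genes, falls ranged from 387 to 1705 and rises from 236 to 1670, with the same libraries left out, beside 996 and 685 in all 6. DESeq2, RLE size factors, library size alone, limma-voom and both other filters gave 24 to 26 member falls and 1 rise. Noc3l and Gar1 lost the call under 1 of them, while Tsr1, Noc4l, Wdr12 or Nop58 gained it under at least 1 of the 13 settings. The sign turned under at least 1 setting in 10 of the 59 members, none of them called, and the cause was not tested. They were Polr1b, Utp14b, Nhp2, Nob1, Pno1, Rrs1, Nop16, Nop56, Nop10 and Rrp9, the last from -0.15 to 0.0024 without cKO replicate 1. With library size alone, the MYC network median and Mycn were both -0.0049. Mycn was also -0.022 without cKO replicate 2, and it, the network median, Polr1b and Utp14b turned without cKO replicate 3, and Nhp2 without WT replicate 2. With 1 library left out, the network median ranged from -0.046 to 0.078, Mycn from -0.063 to 0.12, Polr1b from -0.0051 to 0.13, Utp14b from -0.11 to 0.0069 and Nhp2 from -0.074 to 0.022. With the replicate number as a block, 24 members fell and 1 rose. Same-numbered libraries correlated in their deviations at 0.091, 0.059 and 0.142 over 13900 genes, not all above 0.1, so the numbers were not treated as pairing the samples, and each library correlated best with its own number.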

Other observations

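Genes of the ribosome's own proteins lay on both sides of 0. Among 76 cytosolic ribosomal protein genes, picked by their names after values were seen, 4 fell and 4 rose. Each share was 5.26%, beside 4.94% that fell and 3.40% that rose over all genes tested. Both lay near the shares over all genes, so the single calls named next are not read as a feature of this list. At 0.054, the median log2 fold change of the 76 genes lay above 0. Rps15a (-0.38), Rpl6 (-0.32) and Rpl29 were among those that fell, and Rpl30 (0.31), Rpl36 (0.24), Rpl10a (0.26) and Rpl39 (0.37) rose. Rpl29, a protein of the large subunit, had WT values of 47.5, 44.8 and 43.6 CPM and cKO values of 2.13, 3.07 and 2.92 CPM, a log2 fold change of -4.04 (SE 0.12, adjusted p = 1.53e-09, edgeR quasi-likelihood test). Ribosomal protein genes have many near-identical pseudogenes, and reads that map to several places were not counted, so their counts are uncertain. The list's summed level was 18079 to 19215 CPM in WT and 18532 to 19331 CPM in cKO.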
